A study of Drosophila melanogaster with 6 samples.

Results

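Structural cuticle protein genes of Drosophila melanogaster were compared between lola-O mutant and control embryos near the end of embryogenesis. The members were the genes whose FlyBase symbol starts with Cpr and a digit, Twdl, Lcp, Acp65, Ccp84 or Edg and a digit, or is Pcp, with Edg91 left out: 124 of the 17559 gene identifiers counted. They comprised 70 Cpr genes, 26 Tweedle genes, 12 Lcp65A and Acp65A genes, 8 genes of the Ccp84A and Edg84A group, 5 Lcp genes of band 44C, and the single genes Pcp, Edg78E and Lcp9. Of these, 3 (Lcp1Psi, Lcp65APsi and TwdlU) are annotated as pseudogenes. The 3 mutant samples were lola-O over the deficiency Df(2R)ED2076, where lola-O is labelled a knockout of isoform O, 1 of the many isoforms of the transcription factor gene lola. The 3 control samples carried a wild-type second chromosome over that same deficiency, so the embryos of both groups lacked the deleted interval on 1 homologue. Each sample was RNA from a pool of 100 whole embryos, collected over 2 hours at 25 °C and aged to 20 to 22 hours after egg laying. Nothing in the labels ties the samples to separate crosses or collections. The p-values therefore measure only how these particular samples vary, and that variation may be technical. The lola gene itself was not analysed here, so the genotypes were not checked against its RNA.

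The insect cuticle is a layered extracellular matrix that epidermal and tracheal cells secrete at their apical surface. Its core is chitin fibres bound by structural proteins, and the proportions of those proteins help set whether a region is stiff or flexible. Most Drosophila cuticle proteins belong to the CPR family, which carries the Rebers and Riddiford chitin-binding consensus and includes the Cpr, Lcp, Pcp, Acp65A, Ccp84A and Edg genes listed here; the Tweedle proteins form a separate family. Many of these genes lie in tandem arrays and are switched on in waves tied to ecdysone pulses, one for each cuticle, so larval, pupal and adult genes are named for the cuticle in which they were first found. In late embryos the cuticle being made is that of the first larval instar.

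Total counts per sample ranged from 16217213 to 22759638. CPM values are counts per 1e6 counts after TMM scaling of the library sizes, and changes were tested with edgeR's quasi-likelihood test over 10312 genes that passed a low-count filter, with a gene called at a Benjamini-Hochberg adjusted p below 0.05. Marker genes of muscle, neurons, glia, trachea, midgut and hemocytes were counted in all 6 samples, while Yp1, osk and bcd, markers of ovary and maternal RNA, stayed at or below 0.153 CPM and Cp36 was at 0 in every sample. The fat body markers Lsp1alpha, Lsp2 and Fbp1 did not exceed 0.204 CPM in any sample; these genes are known for expression in later larvae.

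A few genes carried most of the cuticle protein RNA. Levels of different genes are compared as CPM per kb of the longest annotated transcript, as mean ± SD over all 6 samples. Cpr47Eg stood first at 1605 ± 34.6 CPM per kb, and its lowest sample was above the highest of every other member. The 3 numbered copies Lcp65Ag3, Lcp65Ag2 and Lcp65Ag1 followed, with 521 ± 50.7, 462 ± 27.0 and 368 ± 33.2 CPM per kb, and the Tweedle gene TwdlN reached 440.2 ± 20.5 CPM per kb. The ranges of Lcp65Ag3 and Lcp65Ag2 overlapped, as did those of Lcp65Ag2 and TwdlN, so the order of these neighbours does not differ beyond their spread. Next were Cpr78Cc at 340.4 ± 18.7, Cpr11A at 195 ± 8.55, TwdlO at 119 ± 3.39, Lcp65Ac at 108 ± 3.66 and Cpr67B at 107 ± 28.0 CPM per kb. The range of Cpr78Cc overlapped that of Lcp65Ag1 above it. Cpr67B differed between the groups and kept its place only through the controls: its mean was 133 ± 2.33 CPM per kb there, above TwdlO, and 81.7 CPM per kb in the mutants, where Cpr49Ad stood among the first 10 in its stead. These 10 genes held 76.8% of the summed CPM of the 124 members.

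**Figure D1:**
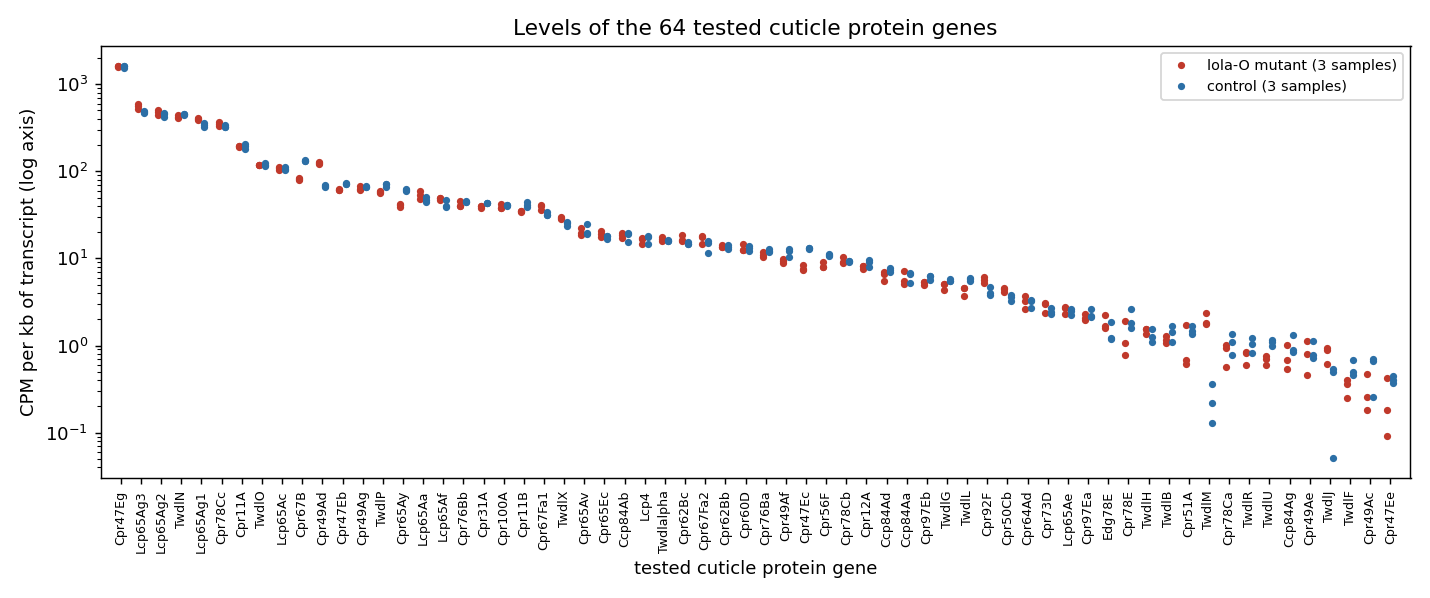
Level of each of the 64 tested cuticle protein genes in CPM per kb of transcript (log axis), with 1 point per sample, mutants in red and controls in blue. Genes are ordered by their mean, from Cpr47Eg at 1605 to Cpr47Ee at 0.320 CPM per kb; the separate red and blue points of Cpr67B, Cpr49Ad, Cpr65Ay and TwdlM are visible by eye.

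Of the 124 members, 64 passed the low-count filter and 60 did not. The 60 were low in every sample: none exceeded 58 counts summed over the 6 samples or a mean of 0.482 CPM. Among them, 10 had no count at all (Cpr30F, Cpr49Ah, Cpr50Ca, Cpr57A, Cpr64Ac, Lcp65Ab1, Lcp65Ab2, Cpr65Az, Cpr72Eb and TwdlQ), which allows up to 3 counts, or 0.132 to 0.185 CPM, in a library. Lcp65Ab1 and Lcp65Ab2 are numbered copies of 1 gene, and how the counting treated reads that map to several places is not given in the sources used here. Some genes named for other cuticles were in this low group. Pcp, the pupal cuticle protein gene, had 42 counts over the 6 samples, Acp65Aa, named for the adult cuticle, had 6, and Edg84A, an ecdysone-dependent gene, had 26. TwdlD, in which dominant mutations are known to give a short, stout larva, had 1 count. Edg78E, the other ecdysone-dependent member, passed the filter at 1.16 to 2.19 CPM. Of the 44C genes first found in the cuticle of the third instar, Lcp1, Lcp2 and Lcp3 had 4, 21 and 13 counts, while Lcp4 passed with 1540 counts. Passing the filter depended on the level in these samples, so counts over the 64 do not describe all 124 members.

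Between the groups, cuticle protein genes changed in both directions, and the split depended on a correction for transcript length. Of the 64 tested, 11 rose and 11 fell in the mutant (edgeR adjusted p below 0.05), which is 34.4% against 39.7% of all 10312 tested genes. With the correction, 7 were called higher and 17 lower, which is 37.5% against 31.5% of all genes, and for lower calls 26.6% against 14.9%. Without it, all genes were called higher in 20.2% and lower in 19.5% of cases. The median log2 fold change of the 64 was -0.055, beside 0.0010 over all tested genes. The summed level of all 124 members did not separate the groups. It was 3419.9, 3291 and 3389 CPM in the mutant libraries and 3322, 3365 and 3329.8 CPM in those of the controls. The control sums lay inside the range of the mutant sums. In RNA from whole embryos, fewer cells of a type and less RNA per cell cannot be told apart.

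Most of the called changes were small, and a handful stood out. The median change of the 22 called members was 1.20-fold, 17 of them changed by less than 1.5-fold, and the 5 that changed more were TwdlM, TwdlJ and Cpr49Ad among those that rose and Cpr47Ec and Cpr67B among those that fell. Over all genes, 3.96% were called with at least a 1.5-fold change. At 2-fold or more, 2 members were called (TwdlM and TwdlJ, both higher), beside 1.62% of all genes, 0.892% higher and 0.727% lower. Both passed the low-count filter only through their mutant samples, so their selection favoured a rise. Without a filter their edgeR adjusted p was 2.15e-15 for TwdlM and 0.0357 for TwdlJ. DESeq2 called 17 members, 7 higher and 10 lower, beside 30.9% of all genes, 15.8% higher and 15.1% lower. Samples of the 2 groups did not overlap in 19 of the 22 called members and in 26 of the 64 tested; the same was true of 47.8% of all tested genes. The 3 called members with overlapping groups were Cpr78Cc, Lcp65Aa and Lcp65Af.

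**Figure D2:**
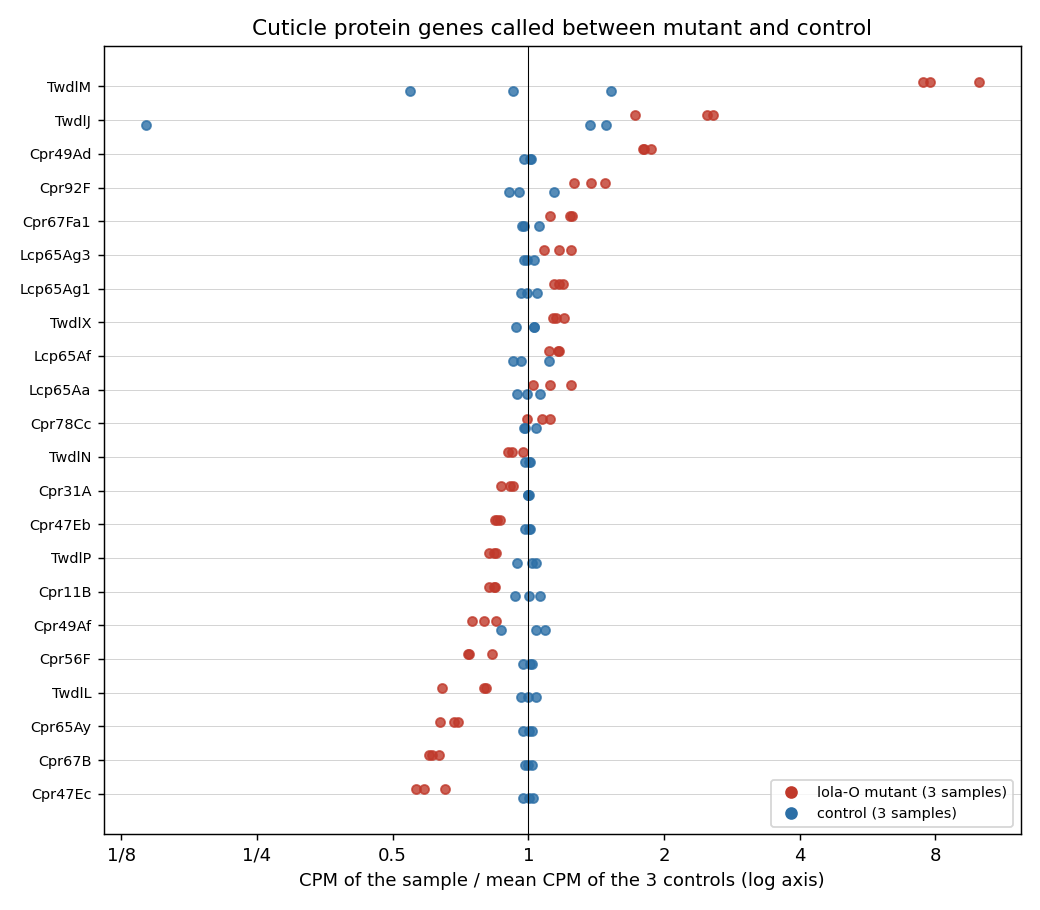
Each of the 22 called members by sample, as CPM divided by the mean of the 3 controls (log axis), mutants in red and controls in blue. TwdlM, TwdlJ and Cpr49Ad lie at the top, with log2 fold changes of 3.06, 1.20 and 0.87, the genes in the middle have mutants close to the controls, and Cpr47Ec, Cpr67B and Cpr65Ay lie at the bottom.

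Cpr49Ad showed the largest increase among well-counted members. This CPR gene of the 49A array (2R, 12390896 to 12391699; positions are in BDGP6.54) had 83.8, 87.2 and 84.2 CPM in mutants 1 to 3 and 47.1, 46.9 and 45.7 CPM in controls 1 to 3. All 3 mutants were well above all 3 controls, with 85.1 ± 1.83 against 46.6 ± 0.782 CPM (SD, n = 3 each), a 1.82-fold rise (log2 fold change 0.87, SE 0.043, edgeR adjusted p = 9.56e-28). None of the other 4 tested genes of the array was called higher. Cpr49Ag, the other abundant gene there, had 43.6, 40.2 and 40.6 CPM in the mutants and 43.0, 44.3 and 42.6 CPM in the controls and was not called (log2 fold change -0.062, SE 0.051, edgeR adjusted p = 0.351). Cpr49Af fell (log2 fold change -0.33, SE 0.095, edgeR adjusted p = 0.00335), from 12.4 ± 1.42 to 9.93 ± 0.601 CPM (SD, n = 3 each); its highest mutant, at 10.5 CPM, was close to its lowest control at 10.8 CPM. Cpr49Ac had the largest negative estimate of the array but few counts (log2 fold change -0.84, SE 0.38, edgeR adjusted p = 0.0719), and Cpr49Ae had a log2 fold change of -0.17; neither passed the test.

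Cpr67B had the smallest adjusted p of the genes that fell. This CPR gene outside any array (3L, 9404797 to 9406174) had 80.7, 85.0 and 82.0 CPM in the mutants and 134, 136 and 132 CPM in the controls. Every mutant was far below every control, and the means were 82.6 ± 2.3 and 134 ± 2.36 CPM (SD, n = 3 each; log2 fold change -0.70, SE 0.036, edgeR adjusted p = 1.04e-26). This was a 1.63-fold fall. Set beside Cpr49Ad per length, the order of the 2 genes differed between the groups: Cpr67B had 81.7 and Cpr49Ad 125 CPM per kb in the mutants, and 133 and 68.2 CPM per kb in the controls.

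Other CPR genes also fell, among them a less counted gene with an estimate of similar size. Cpr47Ec (2R, 11259106 to 11259976) had 5.44, 6.33 and 5.68 CPM in the mutants and 9.90, 9.70 and 9.43 CPM in the controls, with no overlap (log2 fold change -0.74, SE 0.11, edgeR adjusted p = 9.64e-08). Cpr65Ay (3L, 6158075 to 6158630) had 17.0, 18.3 and 18.7 CPM in the mutants and 26.1, 27.3 and 26.9 CPM in the controls, again without overlap (log2 fold change -0.57, SE 0.067, edgeR adjusted p = 6.13e-11). In both genes the 3 mutants lay close together and well below the controls. Cpr56F, Cpr11B, Cpr47Eb and Cpr31A fell too, with log2 fold changes of -0.37, -0.27, -0.23 and -0.15 (edgeR adjusted p of 0.0063 or less). The Cpr31A call was lost without mutant 3 (edgeR adjusted p = 0.0674).

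Among the genes that rose, Cpr92F went (log2 fold change 0.47, SE 0.10, edgeR adjusted p = 1.57e-04) from 7.72 ± 0.962 to 10.6 ± 0.815 CPM (SD, n = 3 each). Its samples were 11.4, 9.77 and 10.6 CPM in the mutants and 6.99, 7.36 and 8.81 CPM in the controls, close but not overlapping. The numbered pair Cpr67Fa1 and Cpr67Fa2 had similar estimates: Cpr67Fa1 rose (log2 fold change 0.26, SE 0.071, edgeR adjusted p = 0.0016), while Cpr67Fa2 had 0.26 (SE 0.11) and was not called (edgeR adjusted p = 0.0581). The Cpr67Fa1 call was lost with the length correction (0.16, edgeR adjusted p = 0.082). Summed over both copies, which does not depend on how their reads were divided, the level was 32.5, 30.9 and 29.99 CPM in the mutants and 26.0, 24.2 and 28.0 CPM in the controls. Cpr78Cc, among the 10 most abundant members, was called higher by only 0.089 (edgeR adjusted p = 0.0335), with overlapping samples, and DESeq2 did not call it (adjusted p = 0.128). Its edgeR adjusted p was 0.331, 0.0987, 0.159 and 0.107 without mutant 1, mutant 3, control 1 and control 2; without mutant 1 its log2 fold change was 0.049, and with the length correction -0.02. In all, 4 Cpr genes rose, 8 fell and 25 were not called out of 37 tested, and their median log2 fold change was -0.085. This is 32.4% called, beside 39.7% of all tested genes. With the length correction 2 rose and 12 fell, and the median was -0.18. Of all genes, 16.7% were called higher and 14.9% lower with that correction.

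Cpr47Eg, the most abundant member, and Cpr11A were among the genes that were not called. Cpr47Eg had 673, 681 and 690.2 CPM in the mutants and 675, 687 and 649 CPM in the controls (log2 fold change 0.023, SE 0.027, edgeR adjusted p = 0.536). Cpr11A had 262, 256 and 259 CPM and 256, 241 and 276 CPM (log2 fold change 0.0073, SE 0.034, edgeR adjusted p = 0.891). The upper end of the 95% interval of the log2 fold change was 0.075 for Cpr47Eg and 0.074 for Cpr11A, and the groups overlapped in each. With the length correction Cpr47Eg was called lower at -0.092 (edgeR adjusted p = 0.00257), outside that interval. Of the 42 members not called, the 95% interval lay within 1.3-fold for 20, within 1.5-fold for 27 and within 2-fold for 33; the rest were too thinly counted to bound a 2-fold change. Calls were more frequent among well-counted members: 17 of 34 members at 10 CPM or more were called, 3 of 14 between 2 and 10 CPM, and 2 of 16 under 2 CPM, where the median SE was 0.055, 0.12 and 0.33 on the log2 scale. All tested genes were called in 39.7% of cases, and in 46.7% when only genes with 5 CPM in 3 samples were tested.

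Some larval cuticle protein genes of 65A rose by small amounts, and 2 of the 4 rises were lost once transcript length was corrected for. Of 7 tested Lcp65A genes, 4 rose and none fell, with a median log2 fold change of 0.18, or 0.069 with the length correction; Acp65Aa was below the filter. Of all tested genes 20.2% were called higher, and of those with transcripts under 1000 bases 29.8%. Lcp65Ag1 (3L, 6134697 to 6135274) had 206, 209.8 and 200.3 CPM in the mutants and 175, 183 and 169 CPM in the controls, without overlap (log2 fold change 0.22, SE 0.033, edgeR adjusted p = 4.38e-08). Lcp65Ag3 (3L, 6130386 to 6130989) had 306, 283 and 325 CPM and 255, 260.0 and 269 CPM (log2 fold change 0.22, SE 0.035, edgeR adjusted p = 2.91e-06). The copy between them in number, Lcp65Ag2, had 272, 241 and 259.8 CPM and 230.4, 255 and 247 CPM, overlapped and was not called (log2 fold change 0.079, SE 0.038, edgeR adjusted p = 0.0982). Because reads of such copies may be divided between them, their sum was also taken. It was 784, 734 and 785 CPM in the mutants and 660.4, 698 and 685 CPM in the controls. The log2 ratio of the means was 0.17, with no overlap. This sum was not corrected for length. With the length correction the single estimates were 0.11 for Lcp65Ag1, -0.028 for Lcp65Ag2 and 0.11 for Lcp65Ag3. Exons of Lcp65Ag3 overlap asRNA:CR46005 on the opposite strand, so its count may include reads of that gene unless the counting used strand.

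Lcp65Af and Lcp65Aa were also called higher, at 0.19 and 0.18 on the log2 scale (edgeR adjusted p = 0.0178 and 0.024), but their samples overlapped between groups. DESeq2 did not call either (adjusted p = 0.0798 and 0.111), and each call was lost when single samples were left out. The edgeR adjusted p of Lcp65Af was 0.0667, 0.0529, 0.09 and 0.108 without mutant 1, mutant 2, control 1 and control 3. That of Lcp65Aa was 0.296, 0.0509 and 0.1 without mutant 1, control 2 and control 3; without mutant 1 its log2 fold change was 0.10. Lcp65Ac, an abundant member, had a log2 fold change of 0.013 (SE 0.046) and Lcp65Ae 0.071 (SE 0.28). Summed over the 12 Lcp65A and Acp65A genes, the level was 897, 837 and 892 CPM in the mutants and 762, 804 and 781 CPM in the controls. The groups did not overlap, although mutant 2 came close to control 2.

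Tweedle genes held the largest relative rise among the tested members, in the thinly counted TwdlM, and a small fall in TwdlN, the most abundant of them. The low-count filter was passed by TwdlM and TwdlJ only through the mutants. TwdlM (3R, 26619118 to 26620224) had 37, 29 and 49 counts in mutants 1 to 3 and 8, 3 and 4 counts in controls 1 to 3. These counts are 1.88, 1.82 and 2.42 CPM and 0.370, 0.132 and 0.224 CPM, so every mutant was several times above every control although the counts were few. The log2 fold change was 3.06 (edgeR, SE 0.36, adjusted p = 7.27e-11), and leaving out single samples gave 2.73 to 3.52. TwdlJ (3R, 26629918 to 26630825) had 16, 9 and 17 counts in the mutants and 1, 11 and 8 in the controls. Its rise (log2 fold change 1.20, SE 0.45, edgeR adjusted p = 0.0264) rested in part on the low control 1: without that sample the log2 fold change was 0.67 (edgeR adjusted p = 0.268), and the call was also lost without mutant 1 (adjusted p = 0.0838), without mutant 3 (adjusted p = 0.11) and under DESeq2 (adjusted p = 0.109).

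The abundant Tweedle genes of the same array were lower or level. TwdlN (3R, 26631869 to 26632956) had 482, 448 and 456 CPM in the mutants and 502, 497 and 489 CPM in the controls, a small fall without overlap (log2 fold change -0.10, SE 0.028, edgeR adjusted p = 0.00198). TwdlP (3R, 26620608 to 26621364) had 43.2, 44.7 and 44.4 CPM and 53.6, 54.7 and 49.8 CPM (log2 fold change -0.26, SE 0.049, edgeR adjusted p = 7.86e-06). TwdlL fell as well (log2 fold change -0.40, SE 0.13, edgeR adjusted p = 0.0115), but was lost under DESeq2 (adjusted p = 0.0503) and without mutant 2 (edgeR adjusted p = 0.0752). TwdlO, the other abundant gene, had 94.9, 96.4 and 95.8 CPM and 94.9, 93.1 and 101 CPM and was not called (log2 fold change -0.0084, SE 0.038, edgeR adjusted p = 0.886). On the X, TwdlX rose (log2 fold change 0.22, SE 0.054, edgeR adjusted p = 7.34e-04), with 41.2, 38.8 and 39.5 CPM in the mutants and 35.3, 35.4 and 32.1 CPM in the controls, while its neighbour Twdlalpha was not called at 0.053 (SE 0.066); its exons overlap CG32568 on the same strand, so reads of the pair may be mixed. Of 14 tested Tweedle genes, 3 rose, 3 fell and 8 were not called, with a median log2 fold change of -0.16. This is 42.9% called, near the 39.7% of all tested genes. With the length correction 3 rose and 5 fell, and the median was -0.21. Of all genes, 16.7% were called higher and 14.9% lower with that correction. Summed over the 26 Tweedle genes, the level was 709, 671 and 684 CPM in the mutants and 732, 729 and 720.1 CPM in the controls, with the highest mutant just below the lowest control. TwdlN, which fell, held most of each sum, so the sums do not describe the 26 genes evenly.

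The remaining groups held no called gene. In the Ccp84A and Edg84A group, 4 of 8 genes were tested and none was called; the most abundant, Ccp84Ab, had 16.2, 15.4 and 14.3 CPM in the mutants and 16.4, 15.8 and 13.0 CPM in the controls (log2 fold change 0.012, SE 0.083, edgeR adjusted p = 0.925), and Ccp84Ag, with the largest estimate, had -0.41 (SE 0.32). Of the larval genes of 44C only Lcp4 was tested, and it was not called (log2 fold change -0.06, SE 0.089, edgeR adjusted p = 0.635). Its values were 13.3, 13.5 and 11.6 CPM and 13.9, 14.2 and 11.5 CPM, with control 3 and mutant 3 both low. Edg78E had a log2 fold change of 0.37 with an SE of 0.25 and was not called (edgeR adjusted p = 0.248).

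The called members were spread over several genomic arrays. Joining members whose starts lay within 20 kb of each other gave 15 arrays of at least 3 genes, which held 91 of the 124 members. Called genes were found in 7 of the 15. Of all tested genes 39.7% were called, 20.2% higher and 19.5% lower. Both directions occurred in 49A, 65A and the array from TwdlM to TwdlD. Both called genes of 47E were lower, and 67F, 78C and the array from TwdlX to Twdlalpha held 1 called gene each, which was higher.

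In 49A (38.5 kb, 8 genes), 1 of 5 tested genes rose and 1 fell. In 65A (31.2 kb, 19 genes), 4 of 9 rose and 1 fell: the Lcp65A genes above rose, while Cpr65Ay, near the end of the array away from the Lcp65Ag copies, fell and Cpr65Av was not called at -0.039 (SE 0.091). In the array from TwdlM to TwdlD (21.9 kb, 12 genes, all of them Tweedle), 2 of 9 rose and 3 fell. The neighbours TwdlM and TwdlP, annotated on opposite strands, went opposite ways. In 47E (26.7 kb, 7 genes), 2 of 4 fell, while the abundant Cpr47Eg did not pass the test. The shares called in these arrays rest on few genes, beside 39.7% of all tested genes. The array from TwdlU to TwdlV had no call in 3 tested genes. Their log2 fold changes were -0.65 for the pseudogene TwdlU, -0.70 for TwdlF and -0.21 for TwdlG (edgeR adjusted p = 0.0917, 0.178 and 0.0639). All 3 had mutants below controls without overlap, and the groups did not overlap in 47.8% of all tested genes. TwdlU and TwdlF had only 113 and 65 counts over the 6 samples. TwdlF passed the low-count filter only through its controls, so its selection favoured a fall. With the length correction TwdlG was called lower (edgeR adjusted p = 0.0432).

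Arrays without a called gene had few tested members: 44C, 64A and 65E had 1 each, 62B and 76B had 2 each, 84A had 4, and 72E had none. Their most abundant genes were Lcp4, Cpr64Ad at 0.052, Cpr65Ec at 0.11, Cpr62Bc at 0.17, Cpr76Bb at -0.085 and Ccp84Ab on the log2 scale of change. Cpr62Bc came close to the threshold (edgeR adjusted p = 0.053). In 78C, Edg78E had the largest estimate and Cpr78Ca had -0.36; Cpr78Cc was its 1 called gene. Outside the arrays, 15 of 33 members were tested, of which 1 rose and 4 fell. This is 33.3% called, beside 39.7% of all tested genes.

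**Figure D3:**
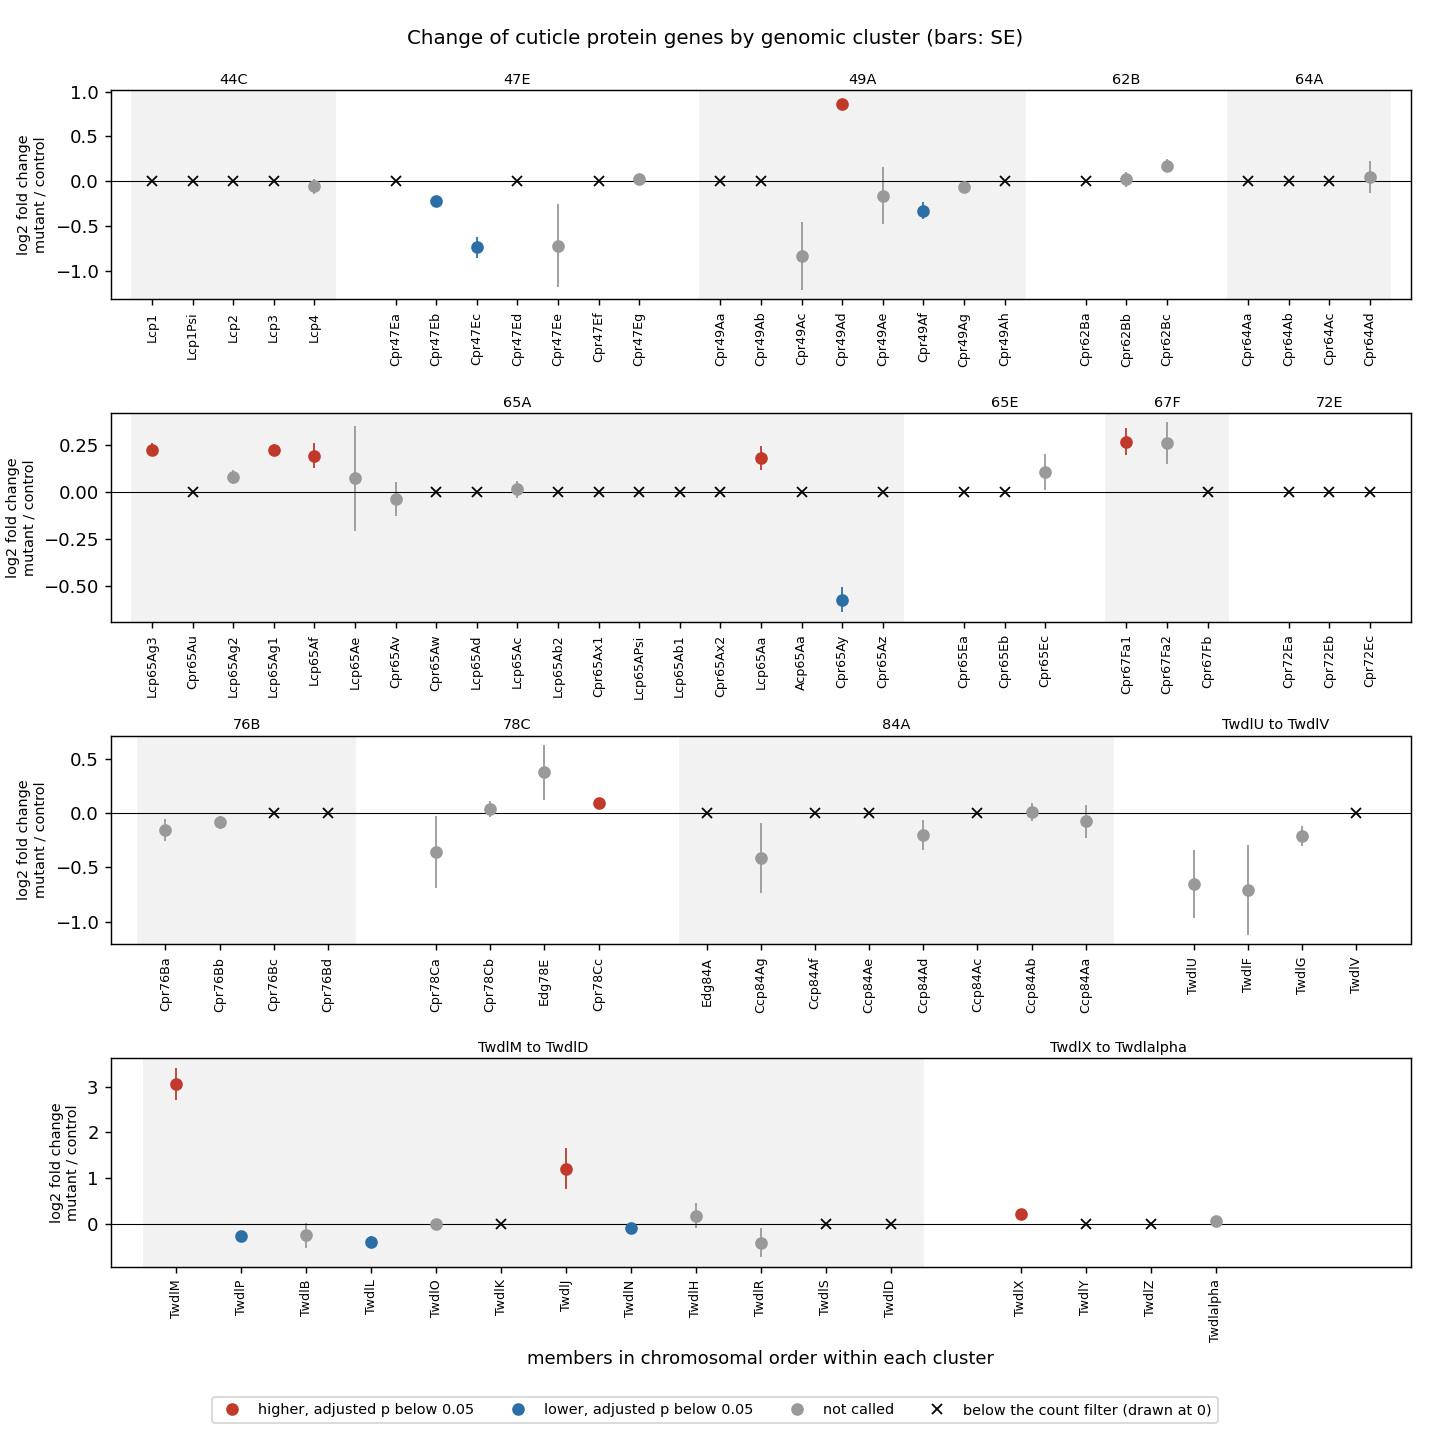
Log2 fold change (mutant over control) of each member in the 15 genomic arrays, in chromosomal order, with bars for the SE; red and blue points passed the test, grey points did not, and crosses at 0 mark genes below the count filter. The 4 panels have different vertical scales. Single genes stand apart from their neighbours, such as Cpr49Ad at 0.87, Cpr65Ay at -0.57 and TwdlM at 3.06.

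**Figure D4:**
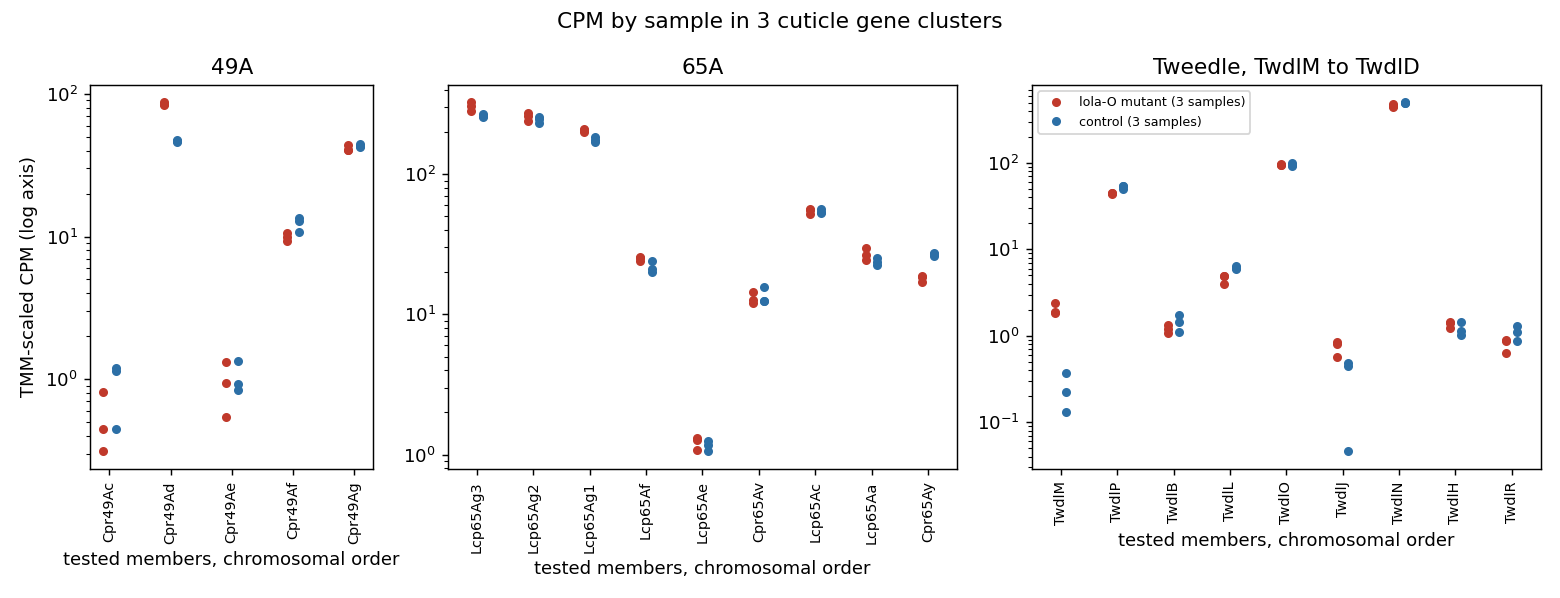
TMM-scaled CPM (log axis) by sample for the tested members of the 49A, 65A and TwdlM to TwdlD arrays, in chromosomal order, mutants in red and controls in blue. The groups separate by eye for Cpr49Ad (85.1 and 46.6 CPM), Cpr65Ay and TwdlM, and lie close together for most other genes.

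Genes next to the 5 members with changes of at least 1.5-fold were compared with them; the window and the gene names were chosen after the values were seen. Members are left out of these counts. Around Cpr67B, 6 other tested genes started within 20 kb; 1 was called higher and 1 lower, with log2 fold changes from -0.23 to 0.10, against -0.70 for Cpr67B. Around Cpr49Ad there were 3, of which 1 (CG13160) was called, lower, at -0.26, and CG13159 had 0.70 without passing the test. No tested gene other than members started within 20 kb of TwdlM, and the 1 near TwdlJ, beat-VII, was called lower at -0.12. Cpr47Ec had more changed neighbours: of 6, 3 were called higher and 1 lower, among them Listericin at 2.14, CG13226 at 1.84 and CR30029 at -2.17. The Cpr47E array lies close to the mutated locus, since the annotated lola gene ends 0.708 Mb from Cpr47Ea on the same arm, and the 49A array starts 1.833 Mb from it. Both groups carried the same deficiency; whether the other second chromosome differs between the groups around these arrays was not tested. By arm, 5 of 14 tested members on 2R were called, 8 of 24 on 3L, 6 of 20 on 3R, 2 of 5 on the X and the single one on 2L. The share called over all tested genes was 39.7%, and it was not taken by arm.

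Transcript length bears on the direction of the small changes. Cuticle genes are short, with a median longest transcript of 872 bases among the 64 tested members against 2001 among all tested genes, and over all genes the direction of calls went with length. Among all 1736 tested genes with transcripts under 1000 bases, 29.8% were called higher and 9.39% lower, with a median log2 fold change of 0.11, while among 1872 genes of 4000 bases or more 5.56% were higher and 48.4% lower, with a median of -0.12. Of the tested members, 38 were under 1000 bases and none reached 4000. These length classes were chosen after the values were seen. With a correction of each sample for the curve of counts on transcript length, 7 members were called higher and 17 lower, beside 31.5% of the 10110 genes tested with a length, 16.7% higher and 14.9% lower, and the median log2 fold change of the members was -0.15 (0.0016 over all genes). Calls in the same direction in both fits numbered 18, 7 higher and 11 lower. The 4 rises lost with the correction were those of Cpr67Fa1, Cpr78Cc, Lcp65Aa and Lcp65Af. The 6 falls gained were Cpr47Eg at -0.092, Cpr49Ag at -0.16, Cpr76Ba at -0.25, Cpr76Bb at -0.18, TwdlG at -0.23 and TwdlO at -0.10; the estimate for Cpr47Eg changed sign. The changes described first kept their direction and their calls: Cpr49Ad was 0.77, Cpr67B -0.79, Cpr47Ec -0.84, Cpr65Ay -0.69 and TwdlM 2.97 in log2 fold change (edgeR, adjusted p of 2.28e-09 or less). Lcp65Ag1 and Lcp65Ag3 shrank to 0.11 and 0.11 and still passed (edgeR adjusted p = 0.00272 and 0.00312).

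**Figure D5:**
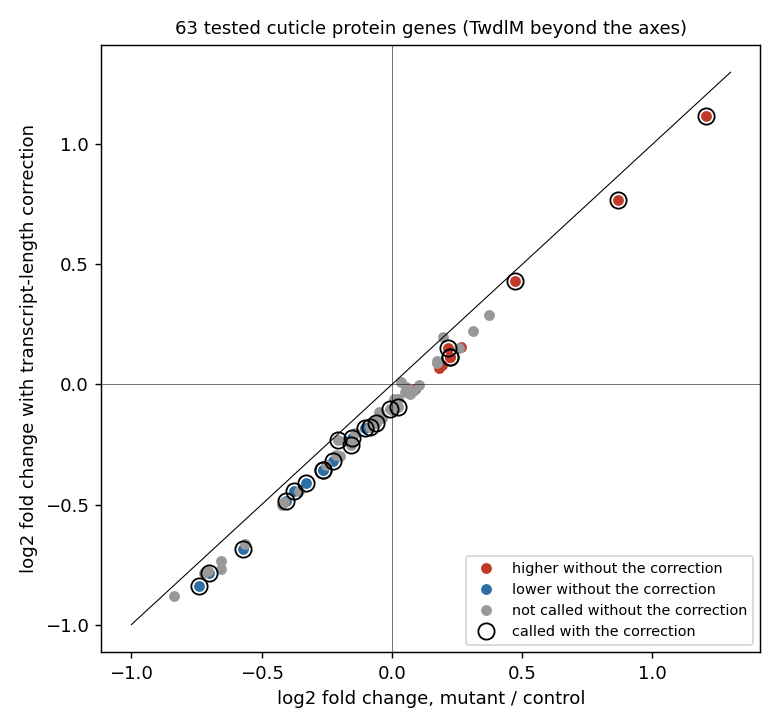
Log2 fold change of 63 tested members without (horizontal) and with (vertical) the transcript-length correction; TwdlM, at 3.06 and 2.97, is beyond the axes. All of these points but 1 lie below the diagonal. Black rings mark plotted members called with the correction, 17 of them below 0. TwdlM, which is 1 of the 7 called higher with it, is not drawn.

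Other genes of cuticle formation were read from the same fit, in which 20.2% of all tested genes were called higher and 19.5% lower, or 16.7% and 14.9% with the length correction. Of 25 tested genes for chitin synthesis and assembly, 2 rose and 9 fell, and the median log2 fold change was -0.039 (3 and 8 with the length correction). Those with the smallest adjusted p were obst-E, which encodes a chitin-binding protein, at -0.38, Idgf6, a chitinase-like gene, at -0.24 and Cda5, a chitin deacetylase gene, at -0.41 (edgeR adjusted p of 1.58e-10 or less). The chitin synthase gene kkv fell by 0.23. Of 9 tested genes for sclerotisation and pigmentation, 3 rose and 2 fell (3 and 2 with the correction). The rises were ple, which encodes tyrosine hydroxylase, at 0.60, Alas, which encodes the first enzyme of heme synthesis, at 0.35 and amd, a gene related to Dopa decarboxylase, at 1.07 (edgeR adjusted p of 8.21e-10 or less).

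Among 17 tested ecdysone-cascade and cuticle regulator genes, none rose and 7 fell (1 and 3 with the length correction, a share of lower calls near that of all genes); grh, which encodes the epidermal factor Grainyhead, had -0.33, EcR, the ecdysone receptor gene, -0.32 and vri -0.71 (edgeR adjusted p of 6.63e-04 or less). Of 9 tested genes for zona pellucida domain proteins of the apical matrix, none rose and 5 fell (1 and 3 with the correction). The giant dpy had -0.33, which turned to 0.091 and was called higher with the correction (edgeR adjusted p = 0.0074); pio had -0.21 and zye -0.26, of which zye was not called with the correction (edgeR adjusted p = 0.0685). Of 10 other tested cuticle and matrix genes, 3 rose (Crys, which encodes the lens protein drosocrystallin, at 4.68, Edg91, a glycine-rich ecdysone-dependent cuticle gene, at 2.36 and Muc55B at 0.12) and Mur2B fell by 0.25. The size of the Crys change rested on controls near 0, at 0.225 ± 0.301 CPM against 6.32 ± 0.518 CPM in the mutants (SD, n = 3 each). With the correction Crys, Edg91 and Muc55B were again called higher, Mur2B was not called (-0.12, edgeR adjusted p = 0.363) and snsl was called lower (-0.31, edgeR adjusted p = 0.033). Mur2B, snsl and kkv were chosen after their values were seen.

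Sums of several cell type marker lists differed between the groups, in a fit that called 20.2% of all tested genes higher and 19.5% lower. The epidermis list (kkv, grh, sha and knk, 4 of 5 names matched) summed to 169 to 172 CPM in mutant and 202 to 206 in control samples. Of its genes kkv and grh fell, knk was not called and sha was not tested. The tracheal list (Gasp, trh, serp and verm) summed to 786 to 793 and 796 to 832 CPM, and 2 of 4 fell. Midgut markers summed to 945 to 956 CPM in mutant and 754 to 764 in control samples, and 4 of 5 rose. Muscle markers summed to 14097 to 14493 CPM in mutant and 16507 to 16857 in control samples, with 2 of 3 lower and 1 higher. The neuron list summed to 754 to 800.4 and 850.2 to 868 CPM, with all 3 genes lower, the glia list to 187 to 194 and 192 to 203 CPM, with no call, and the hemocyte list to 3314 to 3542 and 3345 to 3780.0 CPM, with 2 of 3 lower. These sums were not corrected for transcript length, and long transcripts were called lower more often over all genes. With the length correction kkv went from -0.23 to -0.13 and grh from -0.33 to -0.21, while Gasp went from -0.24 to -0.28. The part of these shifts in the cuticle gene changes was not tested.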

How the data were processed

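As deposited by the authors, each sample's file pairs FlyBase gene identifiers with raw read counts, which are whole numbers. Per the labels, polyA RNA libraries were made from 1 µg of total RNA with a strand-marking kit. Titles and genotypes set the group of each sample, because the descriptions number every control as replicate 1 and the extract protocol speaks of mutant embryos throughout. The submitters' processing notes name build BDGP6 and the tools bedtools 2.25.0, SAMtools 1.3.1, STAR 2.5.2b and Subread 1.5.1. What each tool did, the strand setting and the handling of reads with several matches were not given in the sources used here, so counts of similar copies (Lcp65Ag1 to Lcp65Ag3, Lcp65Ab1 and Lcp65Ab2, Cpr67Fa1 and Cpr67Fa2, Cpr65Ax1 and Cpr65Ax2, Tweedle genes) and of overlapping genes are uncertain.

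Of 17559 identifiers, 17253 matched the Ensembl 115 annotation of BDGP6.54, which gave symbols, positions (1-based) and the longest transcript. The fit used edgeR 4.0.16 in R 4.3.3 on all 6 samples: TMM scaling, filterByExpr, robust quasi-likelihood tests of mutant over control, 2-sided, adjusted over all tested genes. Each SE was derived as the log2 fold change over the root of the F statistic. Floors and counts cover counting error only. Within each group, every pair of libraries differed by more than sampling noise (chi-square per degree of freedom 1.94 to 6.14). The fits were tested on simulated data.

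The members, lists and naming rule were chosen with earlier results of these data known. Named were all called members, the 10 highest per kb, the highest and most changed tested member of each array, and up to 3 called genes with the smallest adjusted p per context list; other names were chosen after their values were seen. Arrays join members within 20 kb, with at least 3 members. The length correction used a loess curve per sample (span 0.5, prior count 0.5). Other settings were RLE and upper-quartile scaling, no filter or 5 CPM in 3 samples, DESeq2 1.42.0, limma-voom (limma 3.58.1), a replicate block, a 2-fold requirement, other array distances and leaving out each sample.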

Additional observations from a re-analysis of the deposited data

How the results depend on the processing

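The 11 rises and 11 falls among the members were the same genes under RLE scaling and with the replicate block (11 and 11); same-numbered mutants and controls deviated together little (correlations of 0.023, -0.028 and 0.043), so the numbers were not taken as pairs. Upper-quartile scaling and limma-voom kept all 22 and added Cpr62Bc and Cpr67Fa2 respectively. Without a filter 114 members were tested, and Cpr35B, Cpr47Ea, Lcp65Ag2 and TwdlV were added; the filter at 5 CPM dropped TwdlJ and TwdlM from the test and added Cpr62Bc. The calls higher fell to 7 with DESeq2, to 7 with the length correction and to 2 with the 2-fold requirement, and ranged from 7 (without mutant 1) to 12 with single samples left out. The calls lower became 17 with the length correction and 0 with the 2-fold requirement, and ranged from 10 to 13 with single samples left out. All genes were called in 33.5% to 37.1% of cases with a sample left out. The members' median log2 fold change was 0.0013 without a filter, -0.0073 at 5 CPM, -0.15 with the length correction, and -0.075 to -0.023 with single samples left out. The length correction turned Cpr78Cc to -0.020 and Cpr47Eg, which it called lower, to -0.092; no other setting turned the sign of a called member, while several uncalled estimates near 0 changed sign. Joining at 10 kb and at 50 kb gave 16 arrays each. Under 2 CPM, SEs of 0.25 to 0.46 limited what could be detected. The causes of these shifts were not tested.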
